A study of Danio rerio with 18 samples.

Results

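The well counted noncoding RNA rows are the 300 most heavily counted rows whose RefSeq accession begins with NR_ or XR_, the prefixes of curated and of predicted noncoding transcripts. They were chosen by their mean count over all 18 libraries, after the 2 deposited count tables had been joined and a row missing from either table had been taken as 0. Of 32820 rows in all, 4398 were noncoding and 682 of these had a mean of 30 or more counts, so the limit of 300 rows set the lower edge. The last rows inside it, XR_223641.4 (linc.0464) and XR_117839.5, had means of 98.22 and 97.89 counts, and the first rows outside it, XR_660535.3, XR_222668.4 and XR_002456851.1, had 97.61, 97.06 and 96.78. The rows around the mean of 30 counts, with 30.06 and 29.78, therefore played no part in the choice. In 4 cases a row had the same counts as another in all libraries, and merging them gave 296 rows. The levels chose the rows and are given as a description, and the difference between groups was tested. A row that reached the edge through the mean of 1 group alone had to differ, however, and for such rows the difference is a description as well.

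The libraries came from pronephric duct, the embryonic kidney tubule of zebrafish, at 30 hours after fertilisation. The genotype label reads WT for the control group and actl6a knockdown for the other, with no mutant allele named, and all embryos carried the Na,K-ATPase alpha1A4:GFP transgene that lights up the pronephros and were injected at the 1-cell stage. The control group (10 libraries) received a standard control morpholino, an antisense oligonucleotide, and the actl6a group (8 libraries) a morpholino that blocks translation of actl6a, which encodes a subunit shared by chromatin remodelling complexes. Duct fragments were freed with collagenase and picked by eye from their GFP and may carry other cells, and the morpholino acted in the whole embryo rather than in the duct alone. The labels do not settle whether a library is 1 duct or a pool of fragments, nor whether replicates came from separate injections, so the p-values measure only the spread between these libraries. Each group has its own count table and its own range of barcodes, and a batch cannot be told apart from the group.

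Noncoding RNAs do their work as RNA. Ribosomal RNA builds the ribosome, small nuclear and nucleolar RNAs act in transcription, splicing and RNA modification, and microRNAs, cut from hairpin precursors, repress messenger RNAs. Long noncoding RNAs are a mixed class, some of which act on neighbouring genes or carry small RNAs in their introns, and most predicted ones have no known function.

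Total counts per library ranged from 1564673 to 3301873 in the control group and from 1731521 to 3393310 in the actl6a group. The row of actl6a itself was at 109 ± 15.6 CPM (counts per 1000000 counts, SD, n = 10) in the control group and 139 ± 12.4 (n = 8) in the actl6a group, 0.34 higher on the log2 scale (SE 0.09, adjusted p 0.0137 by edgeR's quasi-likelihood test). A block of translation need not lower the mRNA, so this row does not check the knockdown, and its call was lost with tissue marker covariates (log2 fold change 0.48, adjusted p 0.135), with the replicate number as a block and with no filter on low counts. The gene of the transgene's promoter, atp1a1a.4, was at 1614 ± 334 and 1400 ± 184 CPM (log2 fold change −0.21, adjusted p 0.22). Pronephros markers were present in every library, with a summed level of 6046 to 9646 CPM in the control and 5450 to 7802 CPM in the actl6a group, and none of their 17 tested rows was called.

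The well counted noncoding rows held 2.82% of all counts, out of 4.2% for all noncoding rows together. Their share was 2.84 ± 0.123% (range 2.69 to 3.08, n = 10) in the control libraries and 2.78 ± 0.099% (2.64 to 2.96, n = 8) in the actl6a libraries, and the ranges overlapped widely. Mean counts per row ran from 97.9 through a median of 189 to 4393. On the CPM scale the lowest row was at 35.0, the median at 69.6 and the highest at 1726. There were 70 rows at 100 CPM or more, 23 at 200 or more and 2 above 1000. The single highest row held 5.77% and the 10 highest 18.4% of the counts in the set. Counts grow with transcript length, which was not used here, so an order by CPM is an order of reads and not of RNA molecules.

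By accession, 85 of the 296 rows matched an entry of the RefSeq table of assembly GRCz12tu, 38 of them under a LOC symbol alone. Of these matches 29 included the version number and 56 were made without it, so the entry may be another version of the transcript. The matched rows were 64 long noncoding RNAs, 9 microRNAs, 5 entries typed as miscellaneous RNA, 5 noncoding transcripts of protein-coding genes, 1 ribosomal RNA and 1 small nuclear RNA. The other 211 rows matched no entry and are given by their RefSeq identifier. The libraries are not stated to keep the strand, so reads of a noncoding row and of a gene on the opposite strand cannot be told apart where their exons overlap. Of 80 matched noncoding rows, 30 lay within the span of a coding gene in GRCz12tu.

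A row is called below where its adjusted p was under 0.05 in edgeR's quasi-likelihood test, adjusted after Benjamini and Hochberg over all 14462 rows tested. Of the 295 noncoding rows tested, 32 were higher and 36 lower in the actl6a group, together 68 or 23.1%. The background was 16.4% of all tested rows (7.9% higher and 8.52% lower) and 20.5% of the coding rows at or above the lowest mean count of the set, and 23.1% of the 359 tested noncoding rows with lower counts that still reached the mean of 30. The share in the set was near that of those coding rows, which had no upper limit on counts and were not matched to the depth of the set. By direction 10.8% were higher and 12.2% lower, against 10.1% and 10.4% of those coding rows. Scaling by library totals without TMM factors gave 24 higher and 49 lower rows in place of 32 and 36. The median log2 fold change of the set was 0.08, beside 0.01 over all tested rows and 0.03 over the coding rows. Without adjustment, 118 noncoding rows had a p under 0.05.

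The edge of 97.9 counts itself favours rows that differ. Of the 68 called rows 22, 7 higher and 15 lower, had a mean at or above it in 1 group only and entered through the group where they were high. They include XR_662220.3, LOC110366352, XR_002456950.1, XR_001798618.2 and XR_658594.3 among the largest rises, and XR_001799397.2, LOC108192157, tmem238b, XR_002457874.1, XR_662166.3, XR_660048.3 and XR_002457692.1 among the largest falls. Their log2 fold changes are given below without a p. In control and actl6a libraries XR_662220.3 had means of 28 and 190 counts, XR_002456950.1 of 42.7 and 168, XR_001798618.2 of 50.4 and 175, and LOC110366352 of 63.3 and 253. Of the 252 tested rows at or above the edge in both group means, 46 were called (18.3%), 25 higher and 21 lower, a choice that in turn leaves out rows that differ.

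Markers of some other cell types differed between the groups. The summed level of yolk and liver markers was 5.2 to 265 CPM in the control and 270 to 459 CPM in the actl6a libraries. Of its 7 tested rows 6 were called higher, where 7.9% of all tested rows were higher. Neural markers summed to 64.9 to 162 CPM and 152 to 931 CPM, with 5 of 9 rows higher, and epidermis markers to 1651 to 3175 CPM and 1887 to 6470 CPM, with 2 of 15 rows higher. Single rows that were not called made up a large part of some sums. The row of cldnb had means of 1214 and 1352 CPM within the epidermis sum. The row of fgb had means of 112 and 189 CPM within the yolk and liver sum. That count of 2 for epidermis became 0 without actl6a replicate 3, 1 without control replicate 1, 2, 4, 5, 7, 8 or 9 or actl6a replicate 5 or 8, and 4 to 6 without control replicate 6 or 10 or actl6a replicate 4 or 6. Blood markers had medians of 115 and 676 CPM, with a median log2 fold change of 1.41 and no row called. Control replicates 3 and 6 summed to 1564 and 2039 CPM, within the actl6a range of 248 to 5201 CPM. The other controls were at 130 CPM or less, below every actl6a library. Muscle markers had medians of 3240 and 1397 CPM and notochord markers 114 and 120 CPM, each with wide overlap and no row called. No tested marker row was at 0 in every library. With the muscle, blood, epidermis and neural marker levels as 4 covariates, 14 noncoding rows were called, among them 12 of the 68, and all 68 kept their sign. Yolk and liver markers, whose summed levels did not overlap between the groups, were not among these covariates. The same covariates took the calls over all rows from 2375 to 207. The part of these cell types in the results was not tested beyond this, and in bulk tissue fewer cells of a type and less RNA per cell cannot be told apart.

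**Figure D1:**
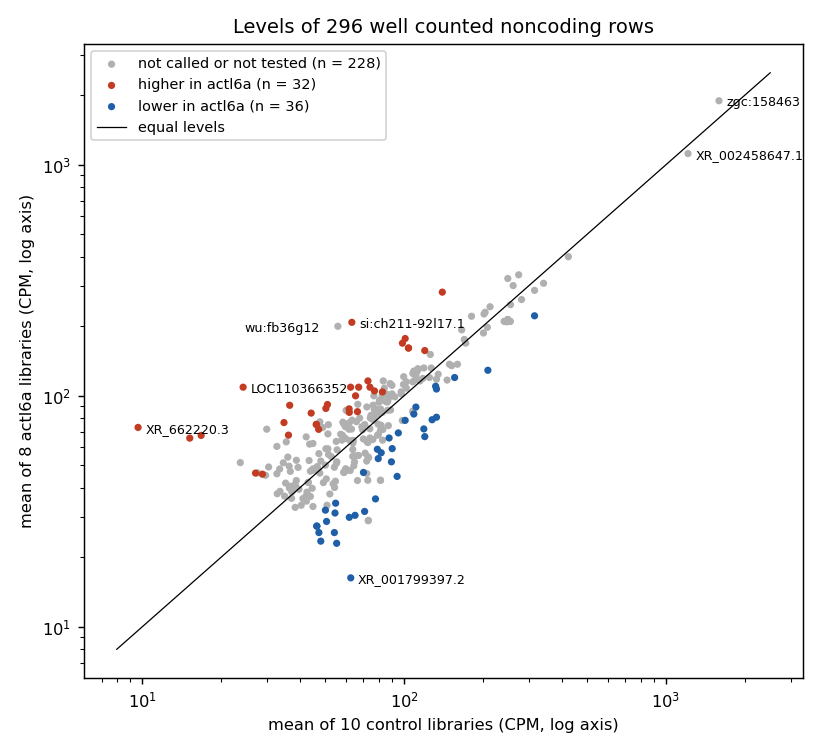
Mean level of each of the 296 noncoding rows in the 8 actl6a libraries (vertical axis, CPM, log scale) against that in the 10 control libraries (horizontal axis, CPM, log scale). Red points are the 32 rows called higher, blue points the 36 called lower and grey points the other 228; most rows lie near the line of equal levels, and the 2 rows above 1000 CPM are grey.

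The most counted row was NR_145818.1 (zgc:158463), annotated as ribosomal RNA. Its level was 879 CPM in the lowest, 1451 in the median and 2907 in the highest control library, and 1045, 1944 and 2600 CPM in the actl6a libraries. The groups overlapped widely, and the log2 fold change of 0.25 (SE 0.21) was not called (adjusted p 0.438). The next row, XR_002458647.1, was at 553, 1226 and 2075 CPM in the control and 799, 1181 and 1356 CPM in the actl6a group. Its log2 fold change of −0.12 was not called, and it became 0.00 without control replicate 1. XR_001796901.2 was steadier, at 360 to 525 CPM and 335 to 450 CPM. XR_002458193.1 was spread from 174 to 795 CPM among the controls alone, with a median of 255, and from 165 to 459 CPM among the actl6a libraries. Of the 10 most counted rows only XR_223315.3 was called. Its level was 204, 289 and 460 CPM in the control and 142, 224 and 304 CPM in the actl6a group (log2 fold change −0.50, SE 0.16, adjusted p 0.0355). The call was lost in 6 fits that each left out a library, namely control replicate 2, 4 or 9 or actl6a replicate 1, 2 or 3, with an adjusted p of up to 0.0708. It was also lost with the tissue marker covariates (log2 fold change −0.26, adjusted p 0.584) and with the replicate block (−0.48, adjusted p 0.118).

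Among the other heavily counted rows, NR_036681.1 (zgc:195356), a long noncoding RNA, was at 260 to 348 CPM in the control and 229 to 336 CPM in the actl6a libraries, with no call (adjusted p 0.261). NR_138548.1 (nupr1a) was at 211 to 316 and 202 to 415 CPM and was not called either. XR_002456874.1 ranged from 61.8 to 333 CPM in the control and from 241 to 460 CPM in the actl6a group (adjusted p 0.262). The small nuclear RNA rn7sk (NR_029421.1), which holds the elongation factor P-TEFb in an inactive complex, was at 49.5, 76.5 and 111 CPM in the control and 33.3, 104 and 168 CPM in the actl6a group. Its actl6a range enclosed the control range, and the log2 fold change of 0.39 (SE 0.24) was not called (adjusted p 0.286). Of a list of 62 known noncoding genes, 17 had counts, 5 were tested and rn7sk was the only one in the set.

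The 5 noncoding transcripts of coding genes included rows of fxyd2, sall4 and sfpq, and none of the 5 was called. The fxyd2 gene encodes a small regulatory subunit of Na,K-ATPase found in kidney tubules. Its noncoding row XR_661637.3 was at 194, 266 and 445 CPM in the control and 191, 341 and 444 CPM in the actl6a group (log2 fold change 0.28, adjusted p 0.239). The row of sall4, which encodes a zinc-finger transcription factor of early embryonic cells, was at 14.3, 64 and 91.0 CPM and 49.7, 86.9 and 170 CPM (adjusted p 0.276). The row of sfpq, a splicing factor gene, was at 18.7 to 70.1 CPM and 23.5 to 78.2 CPM. Reads in exons shared with the coding transcripts of these genes cannot be told apart from reads of the noncoding form.

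Rows of 9 microRNA precursors were counted well enough to enter the set, and 3 of them were called higher and none lower, where 7.9% of all tested rows were higher and 8.52% lower. The class was singled out after its values were seen. Their median log2 fold change was 0.29, and 8 of the 9 were above 0. The counts fall on the precursor's span, so they do not measure the mature microRNA.

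The row of dre-mir-21-1 (NR_030020.1), a precursor of miR-21, which acts in heart valve formation in zebrafish, was at 80.7, 94.3 and 126 CPM in the control and 113, 174 and 236 CPM in the actl6a group. In 7 of the 8 actl6a libraries it stood above every control. The log2 fold change was 0.78 (SE 0.13, adjusted p 6.54e-04), and with the covariates it was 1.01 and still called. Another precursor row, dre-mir-21-2, lay below the edge of the set, with means of 51.4 counts in the control and 120 in the actl6a group, and was not called. The row of mir130b (NR_030077.1) was at 43.0, 66 and 91.4 CPM in the control and 73.4, 116 and 134 CPM in the actl6a group. The control median was exceeded in all 8 actl6a libraries and the highest control in 5 (log2 fold change 0.69, SE 0.13, adjusted p 0.00178). The row of dre-mir-30c (NR_030042.1), of a family needed for pronephros formation in Xenopus, was at 58.8, 76.3 and 102 CPM and 77.6, 103 and 149 CPM. Its ranges overlapped more, with 4 actl6a libraries above every control (log2 fold change 0.45, SE 0.13, adjusted p 0.0255). That call was lost without actl6a replicate 5 (0.35, adjusted p 0.0541) and without actl6a replicate 8 (0.41, adjusted p 0.0531). It was also lost with the replicate block (0.41, adjusted p 0.0889) and with no low count filter (0.42, adjusted p 0.0548). With the covariates neither mir130b (0.69, adjusted p 0.154) nor dre-mir-30c (0.69, adjusted p 0.0931) was called.

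The other 6 precursor rows did not pass the test. The row of mir24-2 was at 33.0, 86.9 and 112 CPM in the control and 81.6, 115 and 147 CPM in the actl6a group (log2 fold change 0.48, adjusted p 0.0739). The most counted precursor, dre-mir-221, was at 107 to 266 CPM and 160 to 288 CPM (0.29, adjusted p 0.265), and mir29a-1 at 47.3 to 117 CPM and 54.6 to 125 CPM (0.26, adjusted p 0.321). The row of mir16b was at 92.6 to 139 CPM and 84.8 to 165 CPM, and that of dre-let-7i, of the let-7 family that times developmental transitions, at 55.8 to 105 CPM and 49 to 119 CPM. For these 2 rows the log2 fold changes were 0.08 and −0.04. The row of mir429b, of the epithelial miR-200 family, ran from 2.28 to 61.8 CPM among the controls and from 17.9 to 81.3 CPM in the actl6a group (adjusted p 0.874).

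**Figure D2:**
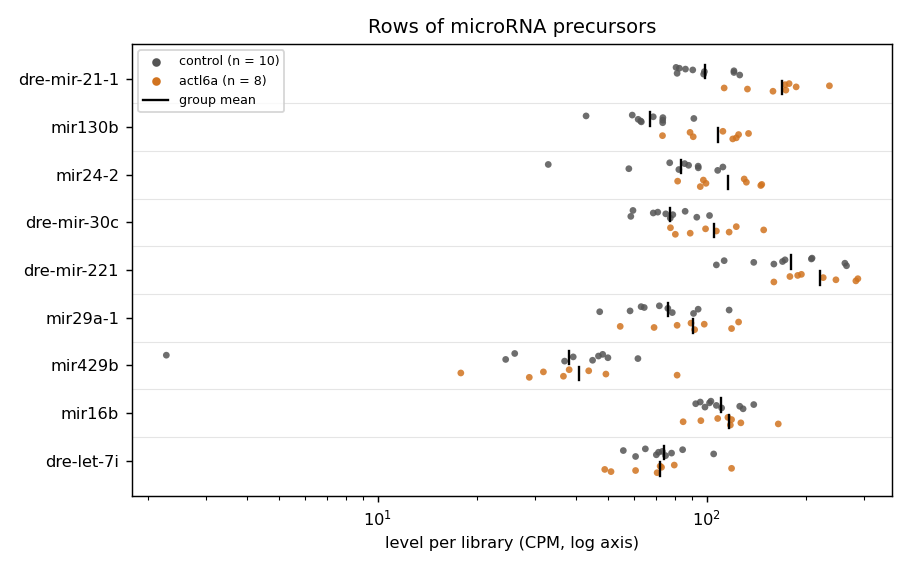
Level of each microRNA precursor row of the set in every library (horizontal axis, CPM, log scale), with control libraries in grey, actl6a libraries in orange and a black line at each group mean. The rows run from the largest to the smallest log2 fold change; dre-mir-21-1 has actl6a libraries at 113 to 236 CPM against 80.7 to 126 CPM in the controls, while dre-let-7i and mir16b overlap throughout.

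Below the edge of the set lay 20 more microRNA rows with a mean of 30 or more counts, of which 7 were called higher and 1 lower, with a median log2 fold change of 0.74. The 7 became 4 without actl6a replicate 8, and were 5 to 8 in the other fits without 1 library. Of the 8 called rows 4 reached the mean of 30 counts in 1 group only. They include mirlet7f and mirlet7g-1 of the let-7 family, which reached it in the actl6a group. Their control and actl6a means were 29.9 and 48.9 counts and 26.3 and 50.5 counts, and these rises are a description. Among all 29 rows 10 were higher and 1 lower, where the background was 7.9% higher and 8.52% lower over all tested rows and 12.3% and 10.9% over the noncoding rows below the edge. The row of mir210, a hypoxia-induced microRNA, was at 8.36 to 24.8 CPM in the control and 35.2 to 121 CPM in the actl6a group, without overlap (log2 fold change 1.76, SE 0.26, adjusted p 2.61e-04). The row of mir34a, a target of p53, was at 0.65, 7.79 and 21.7 CPM and 21.6, 42.0 and 57.6 CPM (2.32, SE 0.37). The lower row was dre-mir-375-1, a microRNA of pancreatic islets, with a median of 17.5 CPM in the control and 1.81 CPM in the actl6a group (−2.52, SE 0.66). These 3 rows were picked after their values were seen. The mean of 30 counts was reached by mir34a through the actl6a group alone (means of 22.6 and 101 counts) and by dre-mir-375-1 through the controls alone (49.3 and 8.25), so their differences were fixed by the choice and carry no p here. With the covariates mir210 kept its call (1.92, adjusted p 0.0177), and the log2 fold changes of mir34a and dre-mir-375-1 were 2.25 and −3.40, neither of them called.

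The genes that make and load microRNAs were taken as a list of 18, of which 8 rows were tested, 1 was higher and 1 lower, with a median log2 fold change of −0.30. Over all tested rows 7.9% were higher and 8.52% lower. The row of dicer1, the enzyme that cuts precursors, fell from 91.1 ± 17.4 CPM (n = 10) to 48.7 ± 7.2 CPM (n = 8), a log2 fold change of −0.90 (SE 0.12, adjusted p 1.55e-04). With the covariates it was −0.65 (adjusted p 0.0853). The row of ago2, an Argonaute that carries the mature microRNA, rose from 117 ± 12.4 CPM to 162 ± 9.98 CPM (0.47, SE 0.07, adjusted p 3.28e-04).

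In GRCz12tu 3 of the matched long noncoding rows span small nucleolar RNA entries, which guide the modification of ribosomal RNA. The row of si:dkey-23i12.5 (NR_120316.1), with 6 such entries, was at 103, 120 and 143 CPM in the control and 123, 154 and 199 CPM in the actl6a group. No actl6a library was below the control median, and the row was called (log2 fold change 0.39, SE 0.10, adjusted p 0.0136). The call did not hold with the covariates (0.25, adjusted p 0.473) or with the replicate block (0.33, adjusted p 0.136). The row of wu:fc47e11 (NR_120315.1), with 3 entries, was at 13.7, 31.8 and 50.7 CPM and 36.9, 44.2 and 55.2 CPM (0.49) and was not called. It reached the edge of the set in the actl6a group only (means of 92.2 and 119 counts), so its difference is a description. The row of LOC100535890 (XR_225364.4), also with 3, was at 47.5 to 85.6 CPM and 44.7 to 95.3 CPM (0.19, adjusted p 0.416). Of 13 tested rows for the proteins of small nucleolar RNA particles, 2 were higher and none lower, where 7.9% of all tested rows were higher and 8.52% lower. The median over the 13 was 0.16, and the 2 were snu13a (0.42) and nhp2 (0.32). With the covariates they were 0.47 and 0.28 and no longer called.

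Beside 7.9% higher and 8.52% lower over all tested rows, long noncoding RNAs in the reference table gave 6 higher and 9 lower calls among 64 rows. Their median log2 fold change was 0.06. Of the called rows LOC110366352, tmem238b, LOC101886247 and LOC108192157 reached the edge of the set in 1 group mean only, so their differences are a description. The largest rise among the long noncoding rows was that of LOC110366352 (NR_147694.1), which lies between sstr2b and sox9b in GRCz12tu. Its level was 1.69, 20.7 and 62.8 CPM in the control and 38.3, 89.8 and 208 CPM in the actl6a group. Of the 8 actl6a libraries 6 were above every control (log2 fold change 2.16, SE 0.52). The next, si:ch211-92l17.1 (NR_138544.1), was at 22.8, 65.9 and 121 CPM and 136, 221 and 281 CPM. Its groups did not overlap (1.72, SE 0.27, adjusted p 4.42e-04). It lies within the span of exoc4, whose own log2 fold change was −0.13 (adjusted p 0.801). The row of si:dkey-33c14.7 (XR_659626.3) also separated the groups, barely, with controls at 22.1 to 64 CPM and actl6a libraries at 64.2 to 99.8 CPM (0.92, SE 0.17, adjusted p 0.0016). Smaller rises were those of si:dkey-238c7.12 (0.81, adjusted p 0.00831) and si:dkey-239h2.3 (0.79, adjusted p 0.0272), the second of which was not called without actl6a replicate 1 (adjusted p 0.0674) or 2 (0.0615).

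Among the falls, si:ch73-272h24.1 (XR_223957.4) was at 71.7, 92.4 and 124 CPM in the control and 23, 46.0 and 55.1 CPM in the actl6a group. Every actl6a library was below every control (log2 fold change −1.06, SE 0.15, adjusted p 1.55e-04). It lies within the span of sema6bb. The row of si:ch211-262i1.2 (XR_221990.4) was at 88.1, 119 and 150 CPM and 32.7, 71.4 and 80.3 CPM, again without overlap (−0.85, SE 0.14, adjusted p 6.95e-04). The row of tmem238b (XR_222841.4), typed as long noncoding in the table, was at 31.4, 67.6 and 112 CPM and 14.7, 31.2 and 46.8 CPM. Its lowest control reached into the actl6a range (−1.16, SE 0.23). The row of LOC101884799 (XR_222220.4) was at 90.8, 130 and 182 CPM and 44.8, 94.9 and 97.2 CPM (−0.71, adjusted p 0.0065). These 4 falls kept their calls with the covariates. The row of tmem238b, however, was at or above the edge of the set in the control group only, so its fall is a description.

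The row of linc-epb41l4a (NR_036690.1) was at 101, 157 and 191 CPM in the control and 101, 117 and 145 CPM in the actl6a group. All 8 actl6a libraries were below the control median, yet the ranges overlapped (log2 fold change −0.38, SE 0.11, adjusted p 0.0224). The call did not hold with the covariates (−0.38, adjusted p 0.246) or with the replicate block (−0.33, adjusted p 0.0786). The coding neighbour of linc-epb41l4a, gal3st1b, was also lower (−1.51, adjusted p 0.00838). LOC108192157 (XR_001800996.2), inside the span of rraga, was at 1.3, 62.0 and 89.3 CPM in the control and 11.3, 21.1 and 36.1 CPM in the actl6a group (−1.26, SE 0.43). This call was lost in 15 of the 18 fits that left out 1 library, all but those without control replicate 4, control replicate 9 or actl6a replicate 4. The coding row of rraga was lower as well (−0.42, adjusted p 0.00428).

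In the 69 pairs of a noncoding row with an adjacent coding gene, which held 54 rows of the set, 44 pairs or 63.8% had log2 fold changes of the same sign. Pearson's r over these pairs was 0.16 and Spearman's rho 0.225. Among 4917 pairs of adjacent coding genes 52.5% had the same sign, with r = 0.0943 and rho = 0.0771. Some of the adjacent genes, such as exoc4 and rraga, span the noncoding row they are paired with. Reads of the 2 cannot be told apart where their exons overlap, which was not examined. These pairs may therefore not be like those of coding genes. The values describe the pairs, which share libraries and in part genes, and carry no test.

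Rows without an entry in the reference table gave 23 higher and 27 lower calls among 211, with a median log2 fold change of 0.05. Of the coding rows at or above the lowest mean count of the set 10.1% were higher and 10.4% lower, and of all tested rows 7.9% and 8.52%. The 23 and 27 calls include rows that reached the edge of the set in 1 group mean only, whose differences are a description. The largest rise of the whole set was that of XR_662220.3, at 2.22, 8.13 and 19.3 CPM in the control and 25.6, 71.5 and 133 CPM in the actl6a group. The groups did not overlap (log2 fold change 2.90, SE 0.41), but the row was in the set only through the actl6a group. XR_001798618.2 was at 1.95, 16 and 30.2 CPM and 45.0, 71.7 and 87.9 CPM, also without overlap (1.99, SE 0.33). XR_002456950.1 was at 1.3, 11.1 and 37.6 CPM and 25.8, 71.9 and 86.4 CPM, with 7 of 8 actl6a libraries above every control (2.10, SE 0.39). Its counts differed in sum by only 2.29% from those of the coding row of LOC103908683, so the reads may be counted for both and the row is uncertain as a noncoding RNA.

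The curated row NR_134972.1 was at 18.9, 37.1 and 56.2 CPM in the control and 52.8, 75.2 and 99.2 CPM in the actl6a group (log2 fold change 1.13, adjusted p 6.23e-04). XR_002456766.1, a more heavily counted row, was at 97.2, 131 and 192 CPM and 163, 280 and 407 CPM. In 7 of 8 actl6a libraries it was above every control (1.01, SE 0.15, adjusted p 3.28e-04). With the covariates its log2 fold change was 0.54 and it was not called. XR_658594.3 was at 9.12, 28.8 and 90.6 CPM and 20.6, 62.9 and 235 CPM, with wide overlap (1.31, SE 0.44). That call was lost in 10 of the 18 fits without 1 library, which left out control replicate 1, 2, 3, 5, 6, 7 or 10 or actl6a replicate 3, 5 or 7. Without actl6a replicate 3 the log2 fold change was 0.94.

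The largest fall was that of XR_001799397.2, at 43.7, 63.8 and 78.0 CPM in the control and 3.84, 11.5 and 36.9 CPM in the actl6a group. The groups did not overlap (log2 fold change −1.92, SE 0.32), and the row was in the set only through the control group. With the covariates it was −2.05. XR_662166.3 separated the groups too, at 50.7, 66.9 and 74.8 CPM and 12.8, 32.7 and 47.4 CPM (−1.09, SE 0.20). XR_002457874.1 was at 54.7, 77.8 and 95.2 CPM and 19.7, 33.6 and 55.2 CPM, and only the highest actl6a library reached the control range (−1.12, SE 0.17). XR_660048.3 was at 35.4, 48.7 and 91.1 CPM and 16.4, 20 and 44.7 CPM (−1.08, SE 0.23). XR_002457692.1 was at 46.6, 64.4 and 71.9 CPM and 14.5, 25.7 and 50.4 CPM (−1.05, SE 0.21). In both of these rows 7 of 8 actl6a libraries were below every control.

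**Figure D3:**
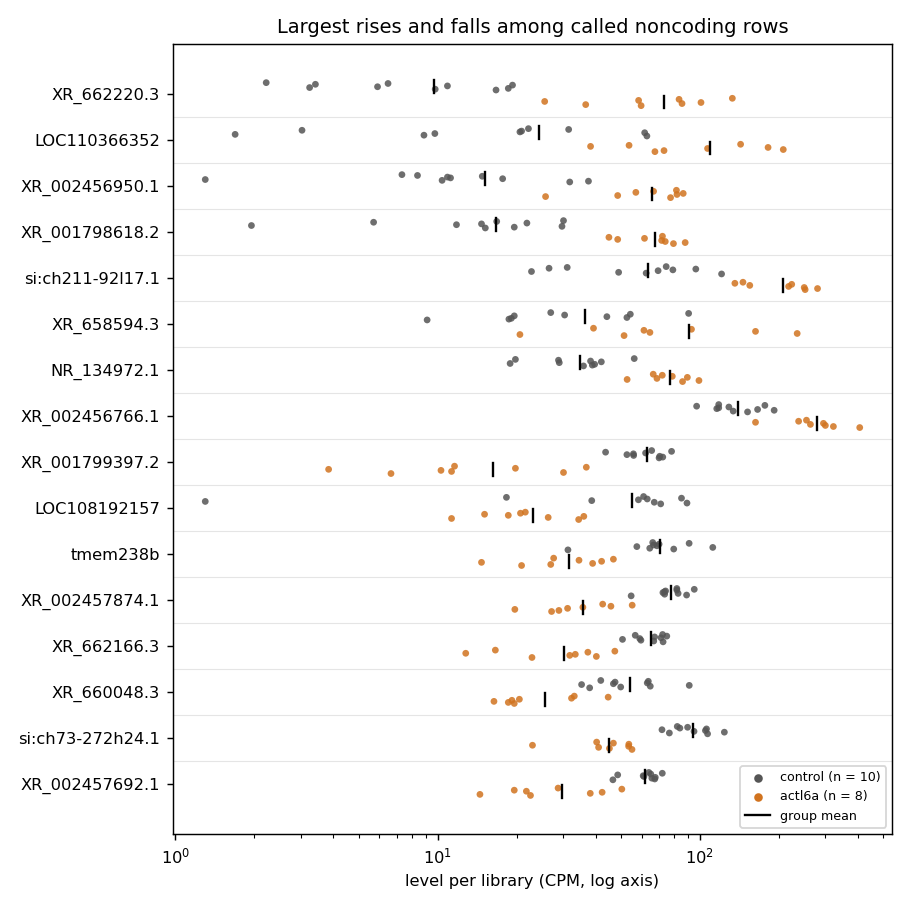
Level in every library (horizontal axis, CPM, log scale) of the 8 called rows with the largest rise and the 8 with the largest fall, with control libraries in grey, actl6a libraries in orange and a black line at each group mean. XR_662220.3 lies at 2.22 to 19.3 CPM in the controls and 25.6 to 133 CPM in the actl6a libraries; the ranges of XR_658594.3 and LOC108192157 overlap widely.

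Called log2 fold changes in the set ran from −1.92 to 2.90. At least 2-fold differences were seen in 17 called rows, 8 higher and 9 lower, or 5.76% of those tested. This stands beside 6.29% of all tested rows and 2.32% of coding rows at or above the set's lowest mean count, which were not matched in depth. The groups did not overlap in 11 rows, 6 higher and 5 lower, or 3.73%, beside 1.77% of all tested rows and 2.2% of those coding rows. All 11 were called. Of the 17 rows 13, and of the 11 rows 4, were at or above the edge of the set in 1 group only. The 11 rows without overlap also included 2 steady rows, which were at or above the edge in both group means. XR_002456237.1 was at 177, 203 and 233 CPM in the control and 102, 126 and 166 CPM in the actl6a group (log2 fold change −0.70, SE 0.09, adjusted p 1.13e-04). XR_224344.4 was at 59.4, 66.7 and 72.6 CPM and 74.0, 85.4 and 94.0 CPM (0.36, SE 0.07, adjusted p 0.0023). XR_660577.3 was the remaining one, at 45.0 to 86.1 CPM and 89.3 to 118 CPM (0.62, adjusted p 0.00159).

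The 12 rows called both with and without the covariates were 7 that rose and 5 that fell. The rises were those of XR_662220.3, LOC110366352, XR_002456950.1, si:ch211-92l17.1, dre-mir-21-1, XR_117623.4 and XR_660577.3, and the falls those of tmem238b, si:ch73-272h24.1, si:ch211-262i1.2, LOC101884799 and XR_002456237.1. Of these, XR_662220.3, LOC110366352, XR_002456950.1 and tmem238b entered the set through 1 group alone. Over the 12, log2 fold changes with the covariates ran from −1.55 for tmem238b to 3.48 for LOC110366352. XR_117623.4 was at 46.1, 72.1 and 99.3 CPM in the control and 93.2, 113 and 142 CPM in the actl6a group (log2 fold change 0.67, adjusted p 0.00166).

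**Figure D4:**
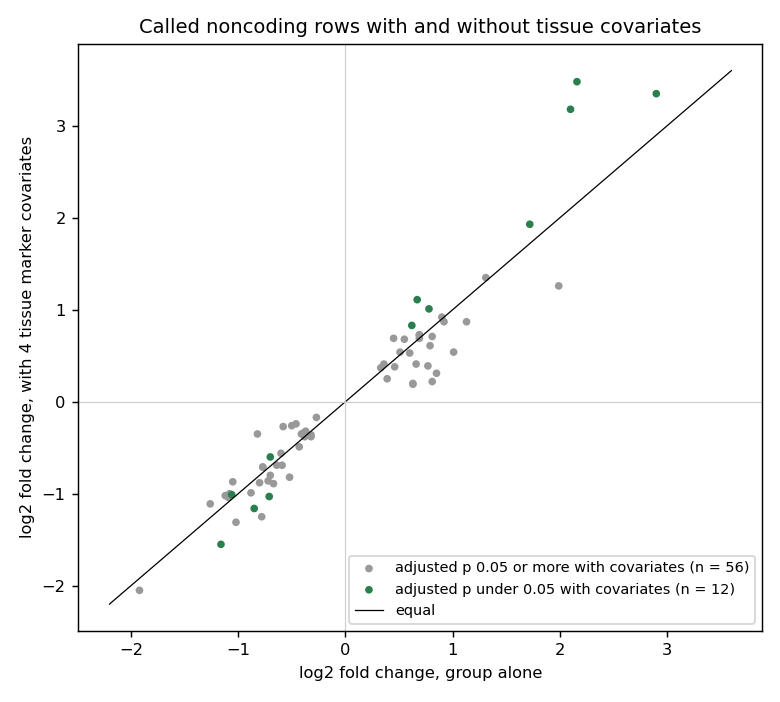
Log2 fold change of the 68 called rows in the fit with 4 tissue marker covariates (vertical axis) against that in the fit with group alone (horizontal axis). Green points are the 12 rows called in both fits and grey points the other 56; every point lies in the lower left or upper right field, so no row changed sign.

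Spread between libraries fell with depth. The median coefficient of variation among controls was 30.1% in the 74 rows with the lowest counts and 17% in the 74 with the highest. Split by depth into 4 bins of 74 rows, the calls numbered 17, 15, 19 and 17 from the lowest bin to the highest. All 17 calls of the lowest bin were of rows at or above the edge of the set in 1 group mean only. Their differences are a description, so the numbers of calls do not compare the bins. Over the set the median coefficient of variation was 22% in the control and 23.7% in the actl6a group. It was 17.5% and 18.2% for the coding rows at or above the set's lowest mean count. Those rows were not matched in depth, so spread at equal depth was not compared. The steadiest row among controls was XR_659587.3, at 4.74%. The most variable was wu:fb36g12 (XR_002459750.1), which had 1041 counts in control replicate 1, 4503 in actl6a replicate 1 and 190 in actl6a replicate 2, and at most 63 elsewhere. It was the only row that did not pass the filter on low counts and was not tested, and its counts differed in sum by 3.57% from the coding row of zgc:174154.

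Some rows share reads. Apart from the merged rows, 46 rows fell into 19 families joined through pairs that differed by at most 5% in summed counts. The largest family had 8 rows with mean counts of 304 to 331, not all within 5% of each other, led by XR_663325.3 and including LOC103909239 and LOC103911737, with log2 fold changes of 0.15 to 0.22 and no call. Of the 68 called rows, 6 formed 3 such pairs, XR_001797078.2 with XR_002457587.1 (−0.77), XR_001799877.2 with XR_002459211.1 (0.69) and XR_002458691.1 with XR_002456996.1 (0.63). Each pair may therefore be a single signal, and with every family counted once 65 calls were left. XR_001797078.2 and XR_002457587.1 reached the edge of the set in the control group only (means of 132 and 69.4 counts), so their fall is a description. The pair led by XR_001799877.2 lost its calls without control replicate 1, 4, 5, 8 or 9 or actl6a replicate 1, 3, 5, 6, 7 or 8, with an adjusted p of up to 0.0976. The pair of LOC107988034 (NR_137286.1) and XR_002455825.1 had the largest fall without a call. It had 34 to 329 counts in the control and 1 to 234 in the actl6a libraries (−1.32, SE 0.73). Both rows reached the edge of the set in the control group only (means of 191 and 80.4 counts for LOC107988034), so this fall is a description.

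No row of the set was counted in 1 group only. There were 287 rows with counts in all 18 libraries, and the other 9 were at 0 in at most 2 libraries, with control replicate 4, the shallowest library, among them in 8 rows. Below the edge of the set, XR_223218.4, with a mean of 70.83 counts and rank 397, had 1 to 266 counts in every control library and 0 in all 8 actl6a libraries. The control mean was 43.5 CPM of the library total, and a count of 0 allows up to 3 counts, or 1.16 CPM on average per actl6a library, so the row was at least 37.4-fold lower. Such floors cover counting error only. The row reached the mean of 30 counts through the controls alone, so a difference was fixed by that choice. It was the only row of either kind with a mean of 30 or more counts that was at 0 throughout a group, 1 of 10959 rows or 0.00912%.

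RNA decay removes many noncoding transcripts. The lists that follow stand beside calls in 16.4% of all tested rows and in 20.5% of the coding rows at or above the set's lowest mean count. Nonsense-mediated decay, which degrades transcripts with early stop codons, had 3 higher and 1 lower call among 19 tested rows with a median log2 fold change of 0.05. The higher rows were etf1b (0.72, adjusted p 1.76e-05), rbm8a (0.23) and eif4a3 (0.24), and the lower was casc3 (−0.51). Of these only etf1b was called with the covariates, where rbm8a was 0.22, eif4a3 0.14 and casc3 −0.37. The call of rbm8a was lost without control replicate 7 or actl6a replicate 1, 2 or 8, and that of eif4a3 without control replicate 1, 3, 7, 8, 9 or 10 or actl6a replicate 1, 2, 3, 4, 5 or 8. The RNA exosome and its cofactors, which trim RNA from its end, had 1 higher (exosc8, 0.39) and 1 lower (skic3, −0.85) among 21, with a median of 0.04, and with the covariates they were 0.52 and −0.91 and no longer called. Of the 18 fits without 1 library, exosc8 was called only in those without control replicate 1 or 8 or actl6a replicate 6 or 7, and skic3 lost its call without control replicate 3, 5 or 7 or actl6a replicate 1, 2 or 8.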

How the data were processed

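The deposited values are whole-number counts per RefSeq accession, unnormalised, in 1 table per group. The submitters' processing notes name cutadapt, FastQC, STAR, featureCounts and edgeR with build GRCz11, without roles or versions, so the handling of multiply mapped reads and of strand is not given in the sources used here. The tables were joined, and NR_ and XR_ rows were ranked by mean count. Names came from RefSeq tables (assembly GRCz12tu, whose coordinates are not printed). In R 4.3.3, edgeR 4.0.16 was run on the counts with filterByExpr, TMM factors, glmQLFit and glmQLFTest with group as its only term, two-sided, adjusted over 14462 rows by the Benjamini-Hochberg method. CPM use TMM-scaled totals, log2 fold changes are actl6a over control, and an SE is the size of the log2 fold change over the root of the test's F. Scripts were tested on simulated counts. Alternatives were RLE factors, library totals, no filter, DESeq2 1.42.0, limma-voom (3.58.1) with sample weights, marker covariates (mean log2 CPM, prior count 2), a replicate block and leaving out each library.

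The rows, gene lists and tests were chosen with earlier results of these data known. Rows were named by rule: the 8 with the highest mean CPM, the 8 largest called rises and falls, rows at 0 in a group, up to 10 called rows without overlap, known noncoding genes, rows at the edge of the set and up to 3 called genes per list. Picked beyond this rule with their values in view were the microRNA rows, the rows that span small nucleolar RNAs, rows with shared reads, the rows called under the covariates, and linc-epb41l4a, sall4, sfpq, si:dkey-238c7.12, si:dkey-239h2.3, XR_223315.3, XR_224344.4, XR_659587.3, wu:fb36g12, LOC107988034 and XR_223218.4. Also picked beyond the rule were eif4a3, cldnb, fgb and LOC101886247. Intervals and floors cover counting error only, since molecules were not tagged as far as the labels say.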

Additional observations from a re-analysis of the deposited data

Results flagged for a closer look

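Among 58 groups of libraries tested for a library far from the rest by Dixon's criterion, 5 were flagged, where chance alone flags about 1 in 20, or 2.9 of 58. Control replicate 4, the shallowest library, was the one in 3 of them. The row of fxyd2 (XR_661637.3) was at 445 CPM there and at most 310 CPM in any other control. XR_002456874.1 was at 61.8 CPM there and at 206 CPM or more in the other controls. XR_660048.3 was at 91.1 CPM there and at most 64.7 CPM elsewhere in its group. In the actl6a group, si:ch73-272h24.1 was at 23 CPM in replicate 5 and at 40.4 CPM or more in the others, and si:ch211-262i1.2 was at 32.7 CPM in replicate 8 and at 58.2 CPM or more in the others. Both were called in every fit that left out 1 library.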

How the results depend on the processing

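The 68 called rows numbered 53 to 82 under RLE factors, library totals, no low count filter, DESeq2 and limma-voom, and 54 to 72 when each library was left out in turn. The calls over all rows were 1876 to 2417 in those fits, against 2375, and the median log2 fold change of the set 0.05 to 0.08, against 0.08. In the fits without 1 library 48 of the 68 kept their calls throughout. With the marker covariates 14 rows of the set and 207 of all rows were called. With the replicate block, which uses replicates 1 to 8 of each group, 38 and 1058 were called, and without the block on the same libraries 55 and 1850. The main fit did not take same-numbered libraries as pairs. Correlations between them were −0.119 to 0.324, 1 of 8 was over 0.1, and 0 of 8 libraries matched its own number best. Whether same-numbered libraries shared an injection cannot be told from these values. The median of the set was 0.00 with library totals. Chosen after seeing the data, dropping the limit of 300 rows gave 151 calls and 1 row counted in a single group, also 1 at a mean of 10 or more, and keeping only rows above the edge in both groups gave 46 calls. Signs of log2 fold changes that were not called turned for XR_002458647.1 (0.49 with covariates, 0.06 without both replicates 1, and −0.21 to 0.00 with a library left out, the last without control replicate 1), XR_002458193.1 (0.25 with the block, 0.22 on the same libraries without it, and −0.26 to 0.07 with a library left out, the last without control replicate 10) and atp1a1a.4 (0.03 with covariates). The causes were not tested. The 74 least counted rows had the widest spread between controls (median 30.1%), which limits the differences that can be detected there.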
